A study of Homo sapiens with 16 samples.

Results

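Quiescence after serum withdrawal was examined in wild-type BJ-5ta fibroblasts by comparing H3K9me2 ChIP-seq libraries from cells kept for 10 days in 0.1% serum with libraries from cells grown in 10% serum. The comparison used the 4 libraries that the labels give as wild type, ChIP and one of these serum levels, 2 per serum level, out of 16 libraries in the study. BJ-5ta is an established line of human fibroblasts made immortal with the telomerase gene hTERT. Reads had been counted over windows reaching 1 kb to each side of annotated transcription start sites (TSS) and over peak regions. The TSS table held 272902 rows, of which 237274 had distinct coordinates and were counted once, and the peak table held 16092 regions. The 4 wild-type input libraries, which are the same kind of chromatin sequenced without antibody, served as background. The serum comparison in ΔLEO1 cells, a single CRISPR/Cas9 clone of the same line without LEO1, is given beside some results with its 2 libraries in 0.1% serum and 1 library in 10% serum. The labels name the antibody only as H3, and the methods of the study name H3K9me2.

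H3K9me2 is a mark of silent chromatin that is placed mainly by the methyltransferases EHMT2 (G9a) and EHMT1 (GLP) and removed by demethylases of the KDM3 and KDM4 families. It covers long stretches of gene-poor chromatin, much of it at the nuclear lamina, and gene families that a cell does not use. Quiescence is a reversible exit from the cell cycle, which fibroblasts enter when serum and its growth factors are withdrawn.

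The wild-type ChIP libraries held 2340713 and 2763576 reads over distinct windows in 10% serum and 2922938 and 2373574 reads in 0.1% serum. A tested window had 14.9 to 18.8 reads on average per library, so a change in one window had to be large to be seen. Over peak regions the libraries held 292945 to 366633 reads. Replicates differed by little more than counting noise, with chi-square over degrees of freedom of 1.05 in 10% serum and 1.04 in 0.1% serum. Signal is given as CPM (reads scaled to a common library size) with TMM factors, edgeR's trimmed-mean scaling, set within each table, and a change is the log2 of 0.1% over 10% serum. This scaling sets the middle of all changes near 0 (median 0.0017 over tested windows), so a value is a gain or loss relative to the rest of the table and cannot show a change of the mark in the cell as a whole. A window or region was called at an adjusted p-value under 0.05 in the quasi-likelihood F-test of edgeR, adjusted by Benjamini-Hochberg. Nothing in the labels says whether replicates came from separate cultures, so p-values and standard errors measure the spread between libraries. That spread was estimated in a fit that also held the ΔLEO1 ChIP libraries, and not from the wild-type libraries alone. With only the 4 wild-type ChIP libraries, 274 of the 363 windows called in the main fit stayed called.

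Most promoters in windows called lower in quiescence were dense in CpG, and those in windows called higher were not. The following 3 promoters, the 250 bases before the RefSeq gene start in GRCh38.p14, are shown because they lie in called windows and differ in this property, with each CG in capitals and the gene strand read 5′ to 3′. HMX1, a homeobox gene, lies at chr4:8871840-8872089 on the minus strand, and ADAMTSL3, of the ADAMTS-like family of matrix proteins, at chr15:83653873-83654122 on the plus strand. Both windows fell in 0.1% serum. PRSS48, a serine protease gene whose promoter at chr4:151276911-151277160 on the plus strand lies inside the span of SH3D19, rose.
HMX1: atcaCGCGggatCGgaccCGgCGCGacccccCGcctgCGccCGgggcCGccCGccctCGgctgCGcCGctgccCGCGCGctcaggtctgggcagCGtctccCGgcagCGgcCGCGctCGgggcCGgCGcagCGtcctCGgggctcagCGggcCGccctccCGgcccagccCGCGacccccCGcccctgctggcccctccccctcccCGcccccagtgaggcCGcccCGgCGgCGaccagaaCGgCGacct
ADAMTSL3: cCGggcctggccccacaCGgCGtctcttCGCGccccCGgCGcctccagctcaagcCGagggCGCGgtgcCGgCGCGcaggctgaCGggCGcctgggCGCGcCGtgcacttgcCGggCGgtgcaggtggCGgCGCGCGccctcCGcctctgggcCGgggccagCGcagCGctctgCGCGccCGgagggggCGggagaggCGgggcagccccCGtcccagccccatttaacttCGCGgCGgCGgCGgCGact
PRSS48: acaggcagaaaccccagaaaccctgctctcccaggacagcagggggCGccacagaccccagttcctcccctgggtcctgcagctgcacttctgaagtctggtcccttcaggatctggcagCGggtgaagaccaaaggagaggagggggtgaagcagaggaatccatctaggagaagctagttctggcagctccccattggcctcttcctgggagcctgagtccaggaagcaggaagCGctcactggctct
The stretches hold 40, 40 and 3 CG. With 50 bases past the start included they hold 47, 48 and 4, and 2.41%, 1.98% and 75.5% of the 35116 promoters in the RefSeq table have at least as many.

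At single windows, 104 of 140885 tested windows (0.0738%) rose in 0.1% serum and 259 (0.184%) fell, for 363 called in all (0.258%). The 104 rises lay in 80 separate loci and the falls in 101 loci of the nuclear genome, with 226 windows, and on the mitochondrial genome, with 33 windows. In the ΔLEO1 libraries 90 of the 104 rises and 165 of the 226 nuclear falls had the same direction. The ΔLEO1 change rests on 1 library in 10% serum, and windows of the same locus can share reads. The share of all tested windows with the same direction was not computed. The window calls depended on the tool and on each library. DESeq2 called 0 windows on the same libraries and had 1348 with an unadjusted p-value under 0.05, where edgeR had 6460 higher (4.59%) and 7000 lower (4.97%). Taking off the difference between the input groups left 1 call (0.000485% of windows), a rise at LOXL2. Without replicate A in 0.1% serum 3 rises and 4 falls remained called, and without replicate B in 0.1% serum 22 and 94, without replicate A in 10% serum 17 and 46, and without replicate B in 10% serum 10 and 84. Scaled by the totals of the peak table in place of TMM, 274 windows were called higher and 109 lower, so the split by direction depended on the scaling.

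The 10 largest rises came from windows with 1 to 5 reads per library in 10% serum, apart from LOXL2 with 11 in replicate B. GCLC, the catalytic subunit of the enzyme that starts glutathione synthesis, had 4 and 1 reads in 10% serum and 24 and 16 in 0.1% serum at chr6:53522928-53524928. Its change was 2.22 ± 0.42 (SE, n = 2 per group, Benjamini-Hochberg adjusted p = 0.00075 in edgeR). Input at this window was level (0.05), and the ΔLEO1 change was 2.07. COL6A2, a chain of collagen VI, had 4 and 5 reads against 38 and 19 at chr21:46110450-46112450, a change of 2.15 ± 0.37. POLR1A, the largest subunit of RNA polymerase I, had 3 and 4 reads against 24 and 19, a change of 2.02 ± 0.40. LOXL2, a collagen crosslinking enzyme of the lysyl oxidase family, had 2 and 11 reads against 31 and 35 at chr8:23319005-23321005, a change of 1.97 ± 0.34, and it was the one window still called once the input difference was taken off. Without replicate A in 10% serum its change was 1.45 and was not called (adjusted p = 0.12 in edgeR), and over all alternatives its adjusted p-value ran from 2.6e-05 to 1.

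The other 6 named rises were smaller and as sparse. PPP5C, a serine/threonine phosphatase, had 3 and 3 reads in 10% serum and 22 and 14 in 0.1% serum, with a fitted change of 1.93 ± 0.43. PICALM, a clathrin assembly protein, had 1 and 5 reads against 18 and 17 (1.89 ± 0.43). PRSS48 had 3 and 2 reads against 16 and 15 (1.89 ± 0.48), and its level in ΔLEO1 cells was 0.84 higher in 0.1% serum. PEMT, which makes phosphatidylcholine by methylation, had 4 and 2 reads against 22 and 13 (1.89 ± 0.45), and was the one named rise whose ΔLEO1 value went the other way (-0.68). H3P3, a histone H3 pseudogene whose counts may be split with its near-identical relatives, had 2 and 2 reads against 14 and 14, and ENSG00000279525, which the file names only by its identifier, had 3 and 3 against 23 and 13. Where a group had 3 reads or fewer in both libraries, as in H3P3, ENSG00000279525, PPP5C and PRSS48, the fitted change depends on the prior count of 2 reads. The PRSS48 window held the RefSeq promoter of its gene. No RefSeq promoter of the gene was found inside the windows of GCLC, COL6A2, POLR1A, LOXL2, PPP5C, PICALM and PEMT. These may lie at other annotated starts and need not describe the main promoter.

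In 9 of the 10 largest falls the input was also lower in 0.1% serum, with the lowest value at -1.44. Over all windows input had 2 called higher (0.000969%) and 49 called lower (0.0237%) of 206484 tested. TAFA5, which encodes a secreted chemokine-like protein, had input CPM of 2.87 and 2.78 in 10% serum and 0.809 and 0.836 in 0.1% serum, beside ChIP CPM of 13.9 and 12.9 against 2.05 and 2.09. CAMTA1, a calmodulin-binding transcription activator, had a change of -2.07 ± 0.36 in ChIP and -0.76 in input. The window shared by SDF4 and B3GALT6, genes of a Golgi calcium-binding protein and a glycosyltransferase that start beside each other on opposite strands, went from 10.9 and 6.99 CPM to 2.39 and 1.25, a change of -1.84 ± 0.38, and input differed by -0.85.
HMX1 went from 11.3 and 8.46 CPM to 1.02 and 4.60 at chr4:8870622-8872622, a change of -1.63 ± 0.35 with -0.65 in input and -1.58 in ΔLEO1 cells. KCNG3, a modifier subunit of potassium channels, went from 13.9 and 11.4 CPM to 4.09 and 3.34 (-1.56 ± 0.31), and PAQR9-AS1, an antisense RNA gene whose reads cannot be told from those of PAQR9 without strand, had nearly the same values (13.9 and 11.4 to 4.43 and 2.93). RBFOX3, a splicing factor of mature neurons, had a change of -1.54 ± 0.40 and TPTEP1, a pseudogene with related copies elsewhere, of -1.52 ± 0.31, with input differences of -0.65 and -0.87. Of the 10 falls, 7 were also lower in ΔLEO1 cells, and SDF4 (0.40), PAQR9-AS1 (0.45) and COL3A1 (0.03) were higher there.

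COL3A1, the chain of collagen III, was the one named fall with higher input. It had 19 and 12 reads in 10% serum and 2 and 6 in 0.1% serum at chr2:189002423-189004423, a change of -1.61 ± 0.41 (adjusted p = 0.044 in edgeR), with 0.18 in input and 0.03 in ΔLEO1 cells. ENSG00000260662 had 16 and 17 reads against 6 and 2. Of the 20 named windows, 0 turned direction under any alternative. Since they were chosen for large changes in groups that did not overlap, leaving out 1 library or rescaling could hardly turn them. TAFA5 was the 1 of the 20 that stayed called without each single wild-type ChIP library. Among the falls, the HMX1, SDF4, KCNG3 and PAQR9-AS1 windows held the RefSeq promoter of the gene. None was found inside those of TAFA5, CAMTA1, RBFOX3, TPTEP1 and COL3A1, which may lie at other annotated starts.

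Across the called genes, promoter CpG differed by direction. A RefSeq promoter lay inside the called window for 37 genes that fell and 7 that rose. Those that fell had a median of 37 CG in 300 bases, and 30 of 37 (81.1%) had at least 27, against 26.5% of the 11054 genes with a tested promoter window. The 7 that rose, among them AGXT and AMT, had a median of 9 and 0 with at least 27. Input was lower in 25 of the 37, with a median of -0.36. LINC02853, with 6 CG, and BRINP3, with 4, were exceptions that fell from CpG-poor promoters, and input there was higher by 0.39 and 0.32.

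Over all 35259 tested windows with a RefSeq promoter, the same order was seen in 4 equal groups by CG content. The median change was -0.0027 in the group lowest in CG, -0.026 and -0.040 in the next groups and -0.12 in the highest, with 2, 3, 8 and 75 windows called lower and 4, 6, 0 and 0 called higher. Input moved more, from 0.16 in the lowest group to -0.23 in the highest. With the input difference taken off, the highest group was 0.16 above the median of all windows, where it had been 0.12 below it, so its direction held for ChIP reads alone and turned for ChIP over input. Windows that overlapped a peak region made up 2.71% of tested windows and 72 of the 226 nuclear falls (31.9%), against 1 of the 104 rises. Windows over peaks had a median of 32.5 reads where others had 15.

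**Figure D1:**
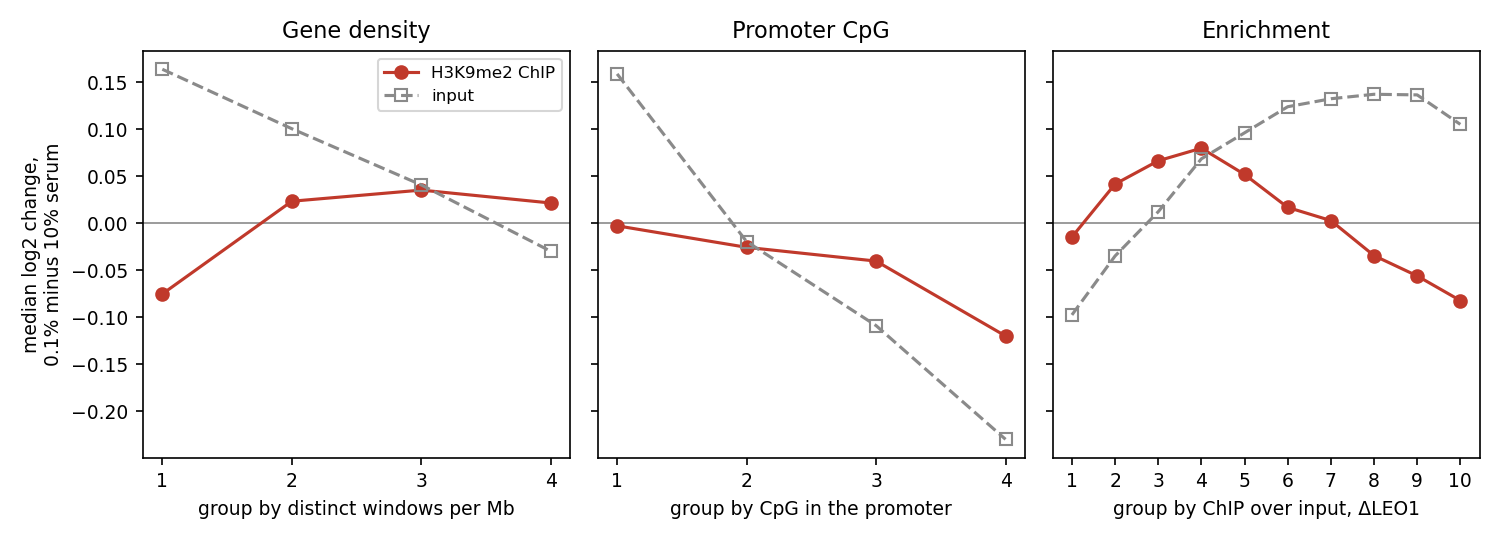
Median log2 change of TSS windows (0.1% minus 10% serum, wild type) in 4 equal groups by windows per Mb, 4 by promoter CG and 10 by ChIP over input in the ΔLEO1 libraries in 0.1% serum, for ChIP (filled circles) and input (open squares). ChIP was lowest in the sparsest group (-0.075), the group richest in CG (-0.12) and the most enriched group (-0.082), and input followed it down for CG only.

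Where windows were sparse along the genome, ChIP signal was lower in quiescence while input was higher. Tested windows were put in 4 equal groups by the number of distinct windows in the same Mb. In the sparsest group (1 to 60 windows) the median change was -0.075, with 131 windows called lower and 20 higher. The other groups had medians of 0.023, 0.035 and 0.022, and the densest had 18 called lower and 19 higher. Input ran the other way, from 0.16 in the sparsest group to -0.03 in the densest. With windows in 10 equal groups by ChIP over input in ΔLEO1 cells in 0.1% serum, which are not part of the comparison, the most enriched group had a median of -0.082 with 91 falls and 4 rises. The median was 0.080 in the group ranked 4 from the bottom and -0.015 in the least enriched group, so the change did not run evenly with enrichment.

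Reads summed by chromosome showed small losses. In edgeR 10 of 25 chromosomes (40%) were called lower and 0 higher, with 0 higher at an unadjusted p-value under 0.05 as well, while DESeq2 called 3 lower and 3 higher. Chromosome X went from 18713 and 18449 CPM to 16927 and 17363, a change of -0.12 ± 0.02 (adjusted p = 0.038 in edgeR). Y was lower still without a call, from 2177 and 2095 CPM to 1839 and 1833. Its change was -0.22 ± 0.09 (adjusted p = 0.096 in edgeR), with 0.15 in input. Chromosome 18, one of the most gene-poor chromosomes, had -0.089 ± 0.013, chromosome 19, the most gene-dense, -0.089 ± 0.026, chromosome 21 -0.068 ± 0.016 and chromosome 13 -0.058 ± 0.017. Chromosomes 5, 7, 9, 15 and 11 were called at -0.046, -0.043, -0.037, -0.033 and -0.031. Input on these was between -0.096, on chromosome 19, and 0.052, on chromosome 13, and 0 chromosomes were called in input. The ΔLEO1 libraries had -0.10 on X, -0.16 on 19 and -0.081 on 18.

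The sign of these values depended on the scaling and on the input. Autosomes ran from -0.089 to 0.0098, the latter on chromosome 17, and library totals in place of TMM moved all of them up by 0.034, which left 0 called. Totals of the peak table moved chromosome values up by 0.17 (median) and gave 19 called higher and 1 lower. With the input difference taken off 1 was called lower, and 5 of the 10 turned direction, chromosome 7 to 0.018, 9 to 0.047, 11 to 0.031, 15 to 0.019 and 19 to 0.050. Leaving out replicate A or B in 10% serum left 0 or 3 called lower, leaving out A or B in 0.1% serum 2 or 4, and leaving out ΔLEO1 replicate B in 0.1% serum gave 16.

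**Figure D2:**
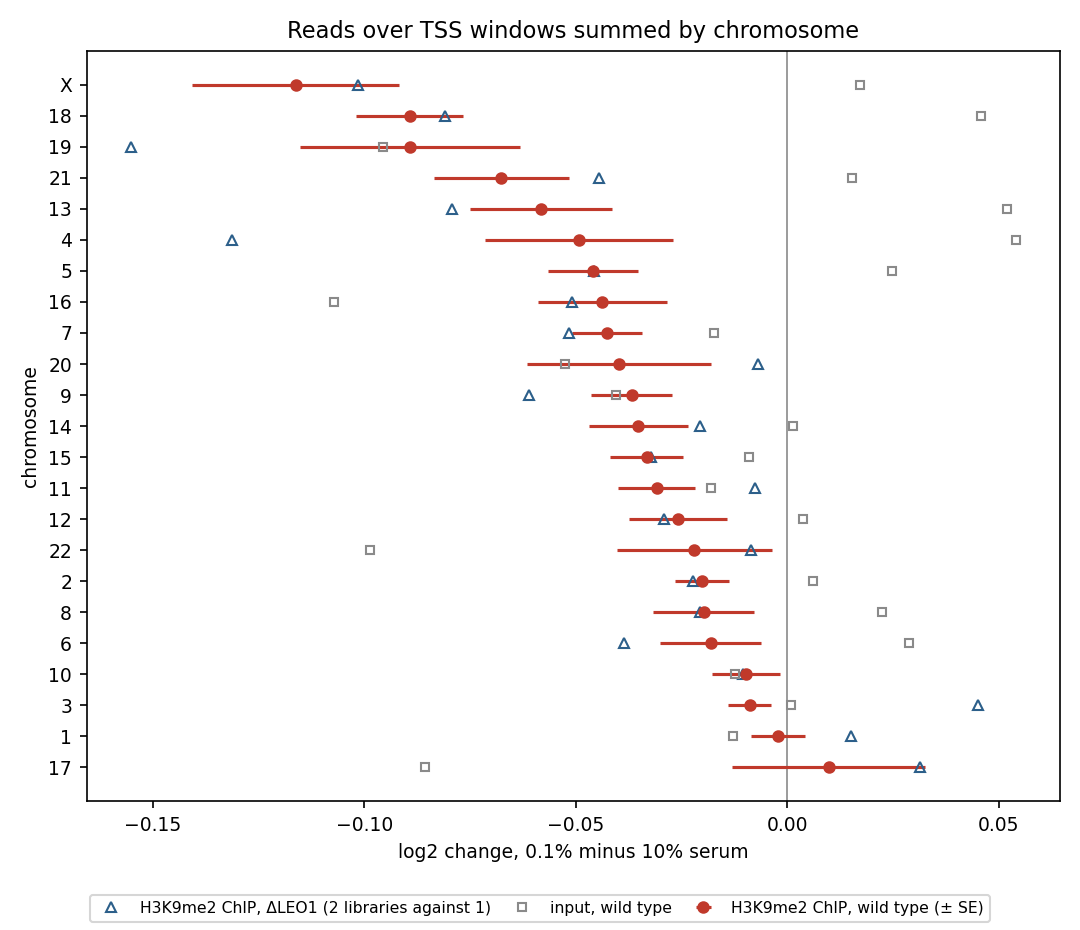
Log2 change (0.1% minus 10% serum) of reads over distinct TSS windows summed by chromosome, for wild-type ChIP with its standard error (filled circles), ΔLEO1 ChIP (triangles) and wild-type input (squares). Among the chromosomes drawn, X, 18 and 19 are lowest in wild-type ChIP (-0.12, -0.089 and -0.089) and 17 is highest (0.0098). The mitochondrial genome and Y are not drawn.

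At 10 Mb, relative losses were larger and local. Of 310 bins with at least 50 distinct windows, 59 (19%) were called lower and 4 (1.29%) higher. This split depended on the scaling, with 44 lower and 20 higher by library totals and 1 lower and 132 higher by the totals of the peak table. Of the 59, 58 were also lower in the ΔLEO1 libraries, where 62.3% of all bins were lower, and the input was lower in 19. The count rests on replicate A in 0.1% serum, since 14 bins were called lower without it and 32 without replicate B in 0.1% serum. DESeq2 called 33 bins lower and 11 higher, and the input difference taken off left 20 lower.

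The lowest bin was chromosome 5 from 20000001 to 30000000, which holds the cadherin genes CDH9, CDH10 and CDH12 and many long intergenic RNA genes. It went from 2511 and 2424 CPM to 1902 and 1933, a change of -0.36 ± 0.05 (adjusted p = 3.4e-09 in edgeR), with 0.21 in input and -0.62 in ΔLEO1 cells. Chromosome 13 from 80000001 to 90000000, with the neuronal genes SLITRK1, SLITRK5 and SLITRK6, was similar at -0.29 ± 0.05 and 0.22 in input. Chromosome X from 80000001 to 90000000 had -0.29 and from 90000001 to 100000000, with PCDH11X, -0.28, and of the 16 bins on X 7 were called lower.
Chromosome 19 from 20000001 to 30000000, a cluster of KRAB zinc finger genes with 37 zinc finger genes among its 128 genes, went from 4804 and 4669 CPM to 3843 and 3823 (-0.30 ± 0.03, adjusted p = 5.5e-11 in edgeR). Input there was nearly level (0.03). Chromosome 15 from 20000001 to 30000000, the Prader-Willi and Angelman region with SNHG14 and UBE3A, went from 5183 and 4861 CPM to 4145 and 4139 (-0.28 ± 0.03), with 0.06 in input and -0.43 in ΔLEO1 cells.

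Chromosome 16 from 40000001 to 50000000, with PHKB, ITFG1 and VPS35, went from 2018 and 1930 CPM to 1604 and 1577 (-0.31 ± 0.05), while the ΔLEO1 value, which rests on 1 library in 10% serum, was -0.04. Chromosome 7 from 50000001 to 60000000, with GRB10, IKZF1 and EGFR, had -0.31 ± 0.04 and -0.29 in ΔLEO1 cells. The last bin of chromosome 6, with TBP and PSMB1, had -0.31 ± 0.09 on 65 windows. The first bin of Y was the remaining one among the 10 lowest, at -0.28 ± 0.06.

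The 4 bins called higher were gene-rich and changed less. Chromosome 15 from 70000001 to 80000000 went from 5392 and 5273 CPM to 5908 and 5761 (0.13 ± 0.03), chromosome 1 from 200000001 to 210000000 from 5323 and 5242 to 5605 and 5743 (0.10 ± 0.03), and bins on 14 from 50000001 and on 10 from 70000001 had 0.093 ± 0.034 each. In 4 groups of bins by their number of windows, that with the fewest (61 to 419) had 35.1% called lower and a median of -0.11, and that with the most (864 to 2733) had 8.97% and 0.0027. Bins within 5 Mb of the widest stretch without starts on a chromosome, which often holds the centromere, were called lower in 20 of 55 (36.4%), and other bins in 39 of 255 (15.3%).

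**Figure D3:**
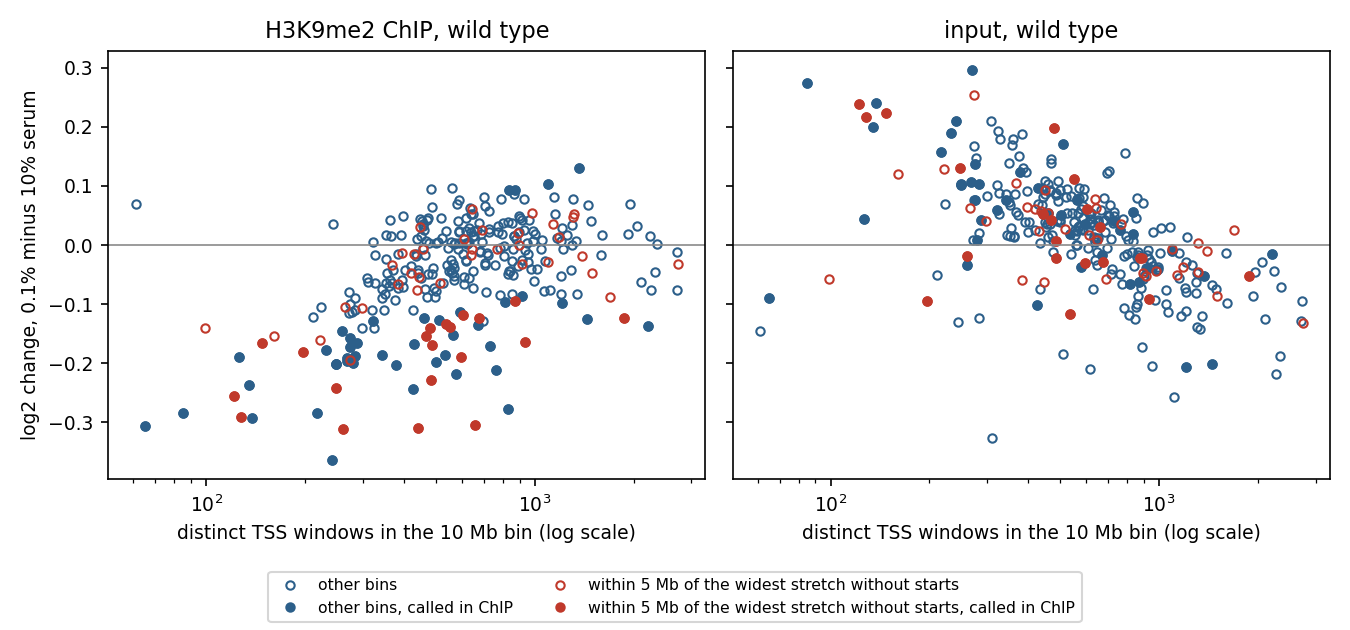
Log2 change (0.1% minus 10% serum) of each 10 Mb bin against the number of distinct TSS windows in it on a log scale, for wild-type ChIP (left) and input (right), with bins called in ChIP filled and bins within 5 Mb of the widest stretch without starts in red. In ChIP the bins with few windows lie lowest, down to -0.36, and in input the same bins lie mostly above 0.

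Reads on the mitochondrial genome, which has no nucleosomes and hence no H3K9me2, were fewer in the ChIP libraries in 0.1% serum. They made up 0.0851% and 0.0963% of reads in 10% serum and 0.0344% and 0.0648% in 0.1% serum. The groups did not overlap, as was also so for most chromosomes. Their means were 0.0907% ± 0.0079 and 0.0496% ± 0.0215 (SD, n = 2 each), while the input held 1.91% in both groups. Of 37 windows, which overlap one another and share reads, 33 were called lower. MT-ND4, a subunit of complex I, fell most, from 25.7 and 32.7 CPM to 8.18 and 16.7 (-1.24 ± 0.20). MT-TT and MT-TP, transfer RNA windows that reach into the control region, were the highest with 0.03 and 0.05, and their groups overlapped. The windows of MT-TF and MT-RNR1, which reach into the control region from its other side, were called lower (-0.999 and -1.09). MT-CYB and MT-TE had -0.65 and -0.63 without a call. Summed, the mitochondrial change was -0.91 ± 0.30 (adjusted p = 0.054 in edgeR), and ΔLEO1 cells went from 1209 CPM to 497 and 517. Without replicate A in 0.1% serum the summed change was -0.51, and without replicate B in 0.1% serum -1.44.

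**Figure D4:**
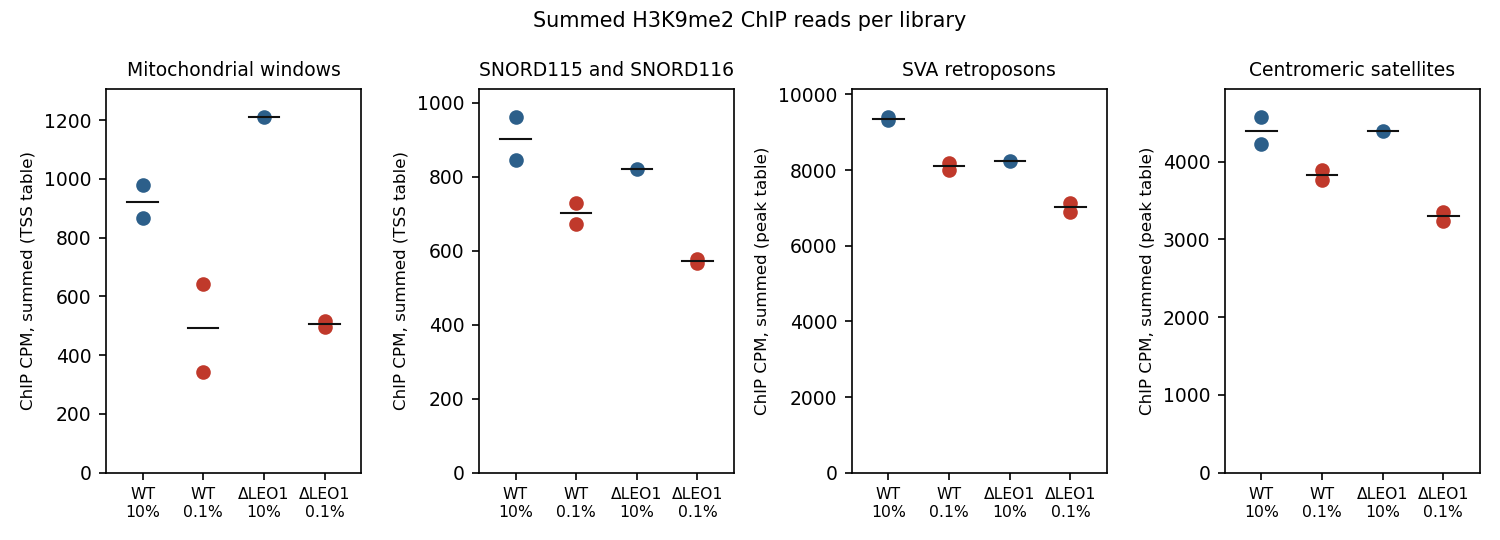
Summed ChIP CPM in each library (points) with group means (lines) for mitochondrial windows, SNORD115 and SNORD116 windows, SVA regions and centromeric satellite regions, in wild type and ΔLEO1 at 10% and 0.1% serum. In all 4 panels both wild-type libraries in 0.1% serum lie below both in 10% serum, and the ΔLEO1 libraries have the same order. Such a separation of the wild-type libraries was also seen for most chromosomes. The axes start at 0, and the first 2 panels come from the TSS table and the others from the peak table.

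Among the peak regions, 64.5% of which carry a repeat annotation, 0 of 16092 (0%) were called by edgeR or by DESeq2. At an unadjusted p-value under 0.05 edgeR had 538 higher (3.34%) and 632 lower (3.93%), and DESeq2 had 148 in all. The regions with the smallest p-values are given without a call. An L1M1 element near ZDHHC17 had 18.0 and 19.2 CPM in 10% serum and 72.5 and 84.9 in 0.1% serum, and an exon of SH3PXD2A, an adaptor of invadopodia, 21.0 and 13.7 against 75.1 and 71.3. An intron region of LOXL2, which overlaps the window that rose, had 3.00 and 13.7 against 59.0 and 78.1. In the other direction, an exon region of the homeobox gene NKX2-4 had 114 and 82.1 CPM against 21.5 and 30.6, a CpG island region named after LINC00290 114 and 115 against 42.9 and 30.6, and an exon of HSF5, a heat shock factor, 135 and 98.6 against 51.0 and 27.2.

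Summed by annotation, 1 of 27 classes (3.7%) was called, the SVA retroposons, which are composite elements found in apes, some copies of which are still mobile. Their 139 regions went from 9393 and 9325 CPM to 8201 and 7991, a change of -0.21 ± 0.04 (Benjamini-Hochberg adjusted p = 0.014 in edgeR), and ΔLEO1 cells had -0.23. The input difference was -0.14, and with it taken off the SVA change was -0.07 and not called (adjusted p = 0.69 in edgeR, with 9.7e-06 to 1 over all alternatives). Leaving out replicate A or B in 10% serum or B in 0.1% serum also ended the call, at changes of -0.20, -0.21 and -0.18. By subfamily, 5 of 6 had groups that did not overlap, as did 48 of the 105 subfamilies of all kinds with at least 20 regions (45.7%). SVA_D had -0.37 over 31 regions, SVA_C -0.38 over 21, SVA_F -0.34 over 6, SVA_E -0.40 over 2 and SVA_B -0.21 over 36, while SVA_A had -0.03 over 43 with overlapping groups. Of the single SVA regions 19 (13.7%) were lower and 2 (1.44%) higher at an unadjusted p-value under 0.05, against 3.93% and 3.34% of all regions.

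Centromeric satellites had a change of like size without a call. Their 55 regions went from 4569 and 4224 CPM to 3888 and 3760 (-0.20 ± 0.05, adjusted p = 0.089 in edgeR), with -0.01 in input and -0.42 in ΔLEO1 cells. HSAT4, on 8 regions, went from 614 and 548 CPM to 403 and 428 (-0.48), and GSAT from 1064 and 857 to 802 and 666 (-0.39), with input higher by 0.38 and 0.30. GSATX (-0.18 over 8 regions) and GSATII, the subfamily with the most regions (-0.10 over 20), also had groups that did not overlap, and SST1 (-0.01 over 6) had groups that did. DESeq2 called the class, at an adjusted p of 0.033, with 0.00091 to 1 over all alternatives. The other satellite class had values that overlapped between groups (4321 and 3589 against 3134 and 4245).

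The large repeat families were nearly level. L1 elements, with 3120 regions, had 202026 and 205102 CPM in 10% serum and 205541 and 206384 in 0.1% serum (0.02 ± 0.01), and Alu elements, with 1268 regions, had 0.0009 ± 0.03. The endogenous retrovirus classes ERVL-MaLR and ERV1 had -0.03 ± 0.02 and -0.03 ± 0.01, and simple repeats -0.07 ± 0.04. CpG island regions and promoter regions had -0.09 ± 0.03 and -0.07 ± 0.03, beside -0.22 and -0.12 in input. Over 105 subfamilies with at least 20 regions the median was -0.0056, with 58 lower and 47 higher, from SVA_C to MIR3 (0.22). L1MA2 had 3640 and 3896 CPM against 4286 and 4442 (0.21).

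Gene classes were described by the windows of their members and were not tested as lists. Of 34 classes 19 had 0 called windows. Over all tested windows 0.0738% were called higher and 0.184% lower, and at these shares most classes would hold few or no calls. With the input difference taken off, the median of 5 classes turned sign against all windows, to 0.022 for cytosolic ribosomal proteins, 0.054 for developmental regulators, 0.072 for orphan G protein-coupled receptors, 0.13 for immediate early genes and -0.051 for quiescence genes. Developmental regulators also turned with the totals of the peak table (0.0091) and with the 4 wild-type libraries alone (0.0066). Taking off the input difference moved other medians against all windows by more than 1.5 times, to -0.31 for olfactory receptors, -0.13 for LINC genes, -0.051 for C2H2 zinc fingers, -0.089 for glutamate receptors, 0.11 for collagens, 0.051 for H3K9 methylation enzymes and readers and 0.24 for HOX genes, among others. Olfactory receptor genes, a large family silent outside the nose, had a median change of -0.15 over 904 windows, 69% of them lower where 49.8% of all windows were lower. Their summed signal went from 8023 and 8099 CPM to 7220 and 7238, input had a median of 0.23, and the median was -0.16 for those on chromosome 11 and -0.14 for those elsewhere. The 1 olfactory window called was OR2C1, from 20.02 and 22.8 CPM to 11.6 and 11.7 (-0.84 ± 0.22).

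C2H2 zinc finger genes, many of which encode repressors of retroelements, had a median of -0.13 over 2890 windows. By edgeR 0 were called, where 0.258% of all windows were. At an unadjusted p-value under 0.05 in edgeR 7.58% were lower and 1.45% higher, against 4.97% and 4.59% of all windows. Input had a median of -0.05. Their sums went from 22230 and 21871 CPM to 19970 and 19927. Those on chromosome 19 had a median of -0.18, those elsewhere -0.06, and the other genes of chromosome 19 -0.02.

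Clustered protocadherins, cell adhesion genes of neurons on chromosome 5, had a median of -0.20. In the PCDHA cluster 90.9% of 44 windows were lower, with sums of 440 and 468 CPM against 373 and 370, and the ΔLEO1 change of the sum was -0.53. PCDHB and PCDHG had -0.08 and -0.19. Immunoglobulin segments had -0.26 over 146 windows, with 0 called, and were lowest at IGH (-0.34) and IGK (-0.29). Glutamate receptor genes had -0.16, and GRIN1 came nearest to a call (-1.08 ± 0.29, adjusted p = 0.056 in edgeR).

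The small nucleolar RNA genes split by locus. SNORD115 and SNORD116, the repeated imprinted genes of the Prader-Willi region, had a median of -0.34 over 71 windows, 85.9% of them lower. Their sums went from 960 and 845 CPM to 728 and 674, with input level (-0.02) and a ΔLEO1 change of -0.52. The 229 other small nucleolar RNA windows had a median of 0.06. SNORD115-13 was called, from 20.9 and 17.7 CPM to 6.82 and 10.0 (-1.14 ± 0.24). Copies within each family are near-identical, so single members are uncertain.

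Interleukins and chemokines, collagens and matrix proteins had medians above that of all windows, while matrix proteases and inhibitors had -0.04 over 140 windows with 2 called lower, at ADAMTSL3. Interleukins and chemokines had a median of 0.21 over 248 windows, with sums of 1480 and 1503 CPM against 1798 and 1728. Of these windows 2 were called higher and 1 lower. CXCL12, a chemokine made by fibroblasts, went from 1.74 and 1.47 CPM to 8.52 and 5.01 (1.70 ± 0.42), and the receptor gene IL6R from 3.48 and 2.57 to 7.84 and 10.4 (1.38 ± 0.35). IL7R fell from 14.8 and 19.5 to 8.18 and 8.78 (-0.97 ± 0.25). Collagens had a median of 0.19 with 3 windows called higher, all of COL6A2, and 2 lower, at COL3A1 and COL23A1 (-0.98 ± 0.24). Matrix proteins had 0.15, with LOXL2 called.
Nuclear lamina genes had the highest median, 0.24 over 111 windows of 11 genes, with sums of 602 and 601 CPM against 683 and 721. SYNE1, which encodes the nuclear envelope protein nesprin-1, went from 2.18 and 3.68 CPM to 11.2 and 8.36 (1.51 ± 0.34). Long genes such as SYNE1 give many windows to their class. No RefSeq promoter of the gene was found inside the called windows of CXCL12, IL6R, IL7R, COL23A1 or SYNE1.

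Channels and developmental genes mixed a level or higher median with single falls. Sodium and calcium channel genes had a median of 0.16 over 320 windows, of which 4 were called lower, all of CACNA1B, the N-type calcium channel. Its window at chr9:137876934-137878934 went from 23.1 and 18.8 CPM to 7.499 and 8.78 (-1.28 ± 0.24), where input had -1.08. KCNG3 was the potassium channel gene called. Developmental regulators had a median of -0.0041 over 745 windows and 3 falls, where 0.184% of all windows were called lower. SOX11, a transcription factor of the embryo, went from 19.1 and 19.1 CPM to 7.499 and 5.85 at chr2:5691384-5693384 (-1.40 ± 0.25, adjusted p = 0.00031 in edgeR) with input at 0.10 and -0.68 in ΔLEO1 cells. NKX2-4 had -1.30 ± 0.31 and NKX6-2 -1.10 ± 0.24, each with input near -0.65. FZD10, a receptor of WNT ligands, fell from 16.5 and 18.4 to 7.499 and 8.78 (-1.05 ± 0.25), with -0.95 in input, and ADAMTSL3 from 16.5 and 14.7 to 7.16 and 7.10 (-1.04 ± 0.26), with -0.08.

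Among RNA genes, LINC genes had a median of -0.05 over 9172 windows with 2 called higher and 7 lower, shares below those of all windows (0.0738% and 0.184%), and input had 0.14. LINC00598 rose (1.17 ± 0.30) and LINC01320, LINC01102, LINC02853 and LINC02808 were among those that fell. MicroRNA genes had 2 windows called higher and 9 lower of 2135, beside 0.0738% and 0.184% of all windows. The share called higher was near that of all windows, and the 9 falls came from 5 genes, MIR3147 and MIR3147HG among them. MIR8073 was higher (1.42 ± 0.35) and MIR3147 lower (-1.18 ± 0.24).

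The remaining classes lay between these, from cytosolic ribosomal protein genes and cadherins (-0.07 each) through orphan G protein-coupled receptors (-0.06), defensins (-0.06), cytochrome P450 genes (-0.05), T cell receptor segments (-0.05), histones (-0.03) and keratins (0.04) to HOX genes (0.09), with 0 called windows in each. In the T cell receptor segments input had 0.19.

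Genes tied to growth control and to the mark itself showed no called window, where 0.258% of all tested windows were called. At that share classes of this size would hold few or no calls, so their absence says little about these genes. Cell cycle and DNA replication genes had a median of 0.04 over 220 windows, with 1.36% higher and 2.27% lower at an unadjusted p-value under 0.05. MCM6, of the replicative helicase, had the smallest p-value, with -1.60 ± 0.43 (adjusted p = 0.058 in edgeR). The 19 tested genes of a list that the study ties to quiescence had a median of 0.13 over 76 windows, and 0 windows were called or had an unadjusted p-value under 0.05. That list was chosen by the study. H3K9 methylation enzymes and readers had 0.14 over 174 windows, and genes of the PAF1 complex -0.25 over 34 windows with sums that hardly differed apart from 1 library (172 and 138 CPM against 132 and 135). Serum-induced immediate early genes had -0.16 over 23 windows beside -0.31 in input.

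**Figure D5:**
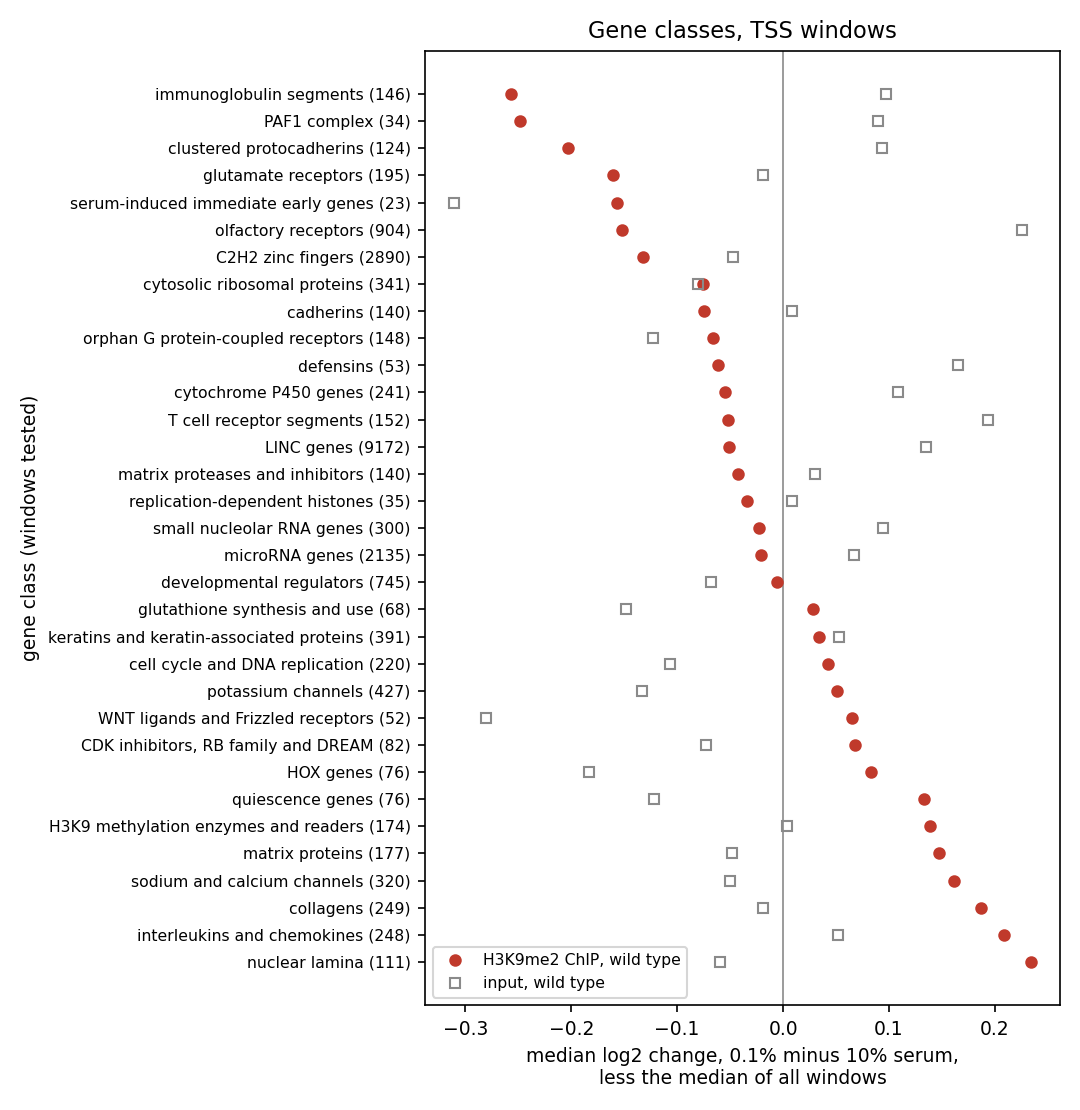
Median log2 change (0.1% minus 10% serum, wild type) of the tested TSS windows in each gene class less the median of all windows, for ChIP (filled circles) and input (open squares), with the number of windows after each name. Immunoglobulin segments, PAF1 complex genes and protocadherins lie lowest in ChIP, and collagens, interleukins and chemokines and nuclear lamina genes highest. No class was tested as a list.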

How the data were processed

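Both deposited tables hold unscaled read counts made by the authors, with 1 column per library. The submitters' processing notes name bcl2fastq 2.20.0.422, STAR 2.7.10a, HOMER, hg38 and dm6, without their roles, and the peak caller is not given in the sources used here. Fly spike-in scaling was not used here, so only relative signal is reported. Coordinates are those of the tables.

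Windows of identical coordinates were counted once. Counts were tested with edgeR 4.0.16 in R 4.3.3 (quasi-likelihood, two-sided, 1 coefficient per group, filterByExpr with a minimum count of 10, TMM, prior count 2) in 1 fit of 7 ChIP libraries, ΔLEO1 10% serum replicate A being left out as nearly empty. P-values were adjusted by Benjamini-Hochberg over everything tested. Each standard error is the fitted change, which includes the prior count, over the square root of the F statistic. It is therefore too small where reads are few. Sums by chromosome, 10 Mb bin and annotation class used the effective library sizes of that fit. DESeq2 1.42.0 was an alternative. The code was tested on simulated data.

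Named windows were called, had at least 10 reads in each library of the higher group and groups that did not overlap, and were the 10 loci with the largest change each way. Peak regions without calls are the 3 with the smallest p-value each way. Members and gene lists were chosen with earlier results of these data known, and the CG, density near wide stretches without starts, family splits and genotype test after seeing the data. What the replicate letters A and B stand for is not stated in the labels, so pairing is not known. A minus B differences correlated at r = 0.0031 between serum groups. That value cannot decide pairing, since replicates differed by little more than counting noise.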

Additional observations from a re-analysis of the deposited data

Results flagged for a closer look

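The interaction term of serum and genotype in the same edgeR quasi-likelihood fit, with Benjamini-Hochberg adjustment, was called for 1 chromosome and 3 bins, and for 0 of 140885 TSS windows (7799 at an unadjusted p-value under 0.05), 0 of 16092 peak regions (891) and 0 of 27 annotation classes (2). The ΔLEO1 arm in 10% serum was 1 library, which is assumed to vary like the other groups, from which the spread was estimated, so the values describe these libraries and do not show a difference between genotypes. DESeq2 was not run on this difference. Each value is the wild-type change less the ΔLEO1 change. On chromosome 3 it was -0.054 (adjusted p = 0.024 in edgeR), with -0.0088 in wild type and 0.045 in ΔLEO1 cells. On chromosome 15 from 30000001 to 40000000 it was -0.30 (adjusted p = 0.0027 in edgeR), where wild type had -0.080 and ΔLEO1 cells 0.21. On chromosome 3 from 50000001 to 60000000 it was -0.23 (adjusted p = 0.016 in edgeR), where wild type went from 4180 and 4073 CPM to 4187 and 4024, and ΔLEO1 cells from 3201 to 3819 and 3642. On chromosome 3 from 40000001 to 50000000 it was -0.21 (adjusted p = 0.031 in edgeR), where wild type went from 7141 and 6926 CPM to 7206 and 7266, and ΔLEO1 cells from 5297 to 6467 and 6132. The part of the 1 usable ΔLEO1 library in 10% serum in these values was not tested. The test was added after seeing the data. Groups of 2 libraries are too small to look for a library far from the others.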

How the results depend on the processing

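With 2 libraries per group and about 15 to 19 reads per window, only large changes in single windows could be called, and a shift of the whole mark could not be seen. Of 1257 alternative values 829 stayed the same, 257 lost a call, 41 gained one, 31 turned direction and 99 moved. For single features the same means direction and side of the threshold. For counts of calls it means a close number, and for gene classes and groups of windows a value within the spread between libraries. Turns of gene class and window group medians are not among the 31. The cause of each change was not tested unless the setting itself uses fewer libraries. TSS windows called higher and lower (104 and 259) were 0 and 4 with all 8 ChIP libraries, 274 and 109 with totals of the other table, 0 and 0 in DESeq2, and 1 and 0 with the input difference taken off. Leaving out 1 library gave 3 to 108 higher and 4 to 283 lower. Peak regions (0 and 0) were 1 and 10 with the other totals, 2 and 3 with the replicate letter as a block, 0 and 1 with the 4 wild-type libraries, and 0 to 3 each way leaving out 1 library. Chromosomes (0 and 10) were 0 and 0 with 8 libraries or with library totals, 19 and 1 with the other totals, 3 and 3 in DESeq2, 0 and 1 with input taken off, and 0 to 16 lower leaving out 1 library. Bins (4 and 59) were 0 and 0 with 8 libraries, 20 higher with library totals, 132 and 1 with the other totals, 11 and 33 in DESeq2, 36 lower with 4 libraries, 20 lower with input taken off, 9 and 91 at 5 Mb, and 0 to 9 higher and 14 to 66 lower leaving out 1 library. Annotation classes (0 and 1) were 1 higher with library totals, 0 lower with 8 libraries or input taken off, 9 lower with the other totals, 2 lower in DESeq2 or with the replicate block, and 0 to 1 lower leaving out 1 library. The sparsest of 4 groups of windows, -0.077 below all windows, had -0.068 with 4 libraries and -0.18 with input taken off, the most enriched of 10 groups (-0.084) had -0.14 and the group richest in CG (-0.12) had 0.16 with input taken off.

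Direction turned with the totals of the other table on chromosomes 5 (0.13), 7 (0.13), 9 (0.14), 11 (0.14), 13 (0.11), 15 (0.14), 18 (0.083), 19 (0.084), 21 (0.10) and X (0.057), for L1 (-0.11) and Alu (-0.12). It turned with library totals on 11 (0.0027) and 15 (0.00034), in DESeq2 on 11 (0.0041) and 15 (0.0019) and for Alu (-0.0031), and with input taken off on 7 (0.018), 9 (0.047), 11 (0.031), 15 (0.019), 19 (0.050), ERV1 (0.052), CpG regions (0.13), promoters (0.052), satellites (0.25) and Alu (-0.038). Leaving out 1 library turned Alu (from -0.032 to 0.043 over the libraries left out, -0.0076 among them) and satellites (from -0.32 to 0.10, 0.033 among them). As it is not known whether the letters pair libraries, the block is given here only. It gave 108 and 290 TSS windows, 0 and 13 chromosomes and 6 and 66 bins, and added calls for the mitochondrial sum (adjusted p = 0.041 in edgeR, with 6.4e-13 to 1 over all alternatives) and for ERV1.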
